A study of Homo sapiens with 10 samples.

Results

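The embryonic, fetal and adult globin genes were followed in K562 cells treated with 2 compounds that block the bromodomains of the acetyltransferases CREBBP and EP300. The group was picked as a list of gene symbols, with earlier results of these data known. It holds HBE1, HBG2, HBG1, HBD and HBB of the β-globin cluster and HBZ, HBA2 and HBA1 of the α-globin cluster, 8 of the 23284 genes listed. All 8 were found. K562 is an established human line derived from a chronic myelogenous leukemia. The 5 conditions were DMSO (the vehicle), CBP30 at 2 µM, CBP30 at 5 µM, I-CBP112 at 2 µM and I-CBP112 at 5 µM, each applied for 48 h to unmodified cells. There were 2 biological replicates per condition, 10 samples in all, so every p-value below measures only the spread between pairs of samples of a single line. Polyadenylated RNA was sequenced. Each value is in FPKM, fragments scaled to transcript length and to the mapped fragments of the library, which is a level per length and can be set side by side between genes.

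Hemoglobin is built from α-like and β-like chains, and each cluster is read in developmental order. The embryo makes ζ chains from HBZ and ε chains from HBE1, the fetus makes α chains from HBA1 and HBA2 and γ chains from HBG1 and HBG2, and the adult β-like chains come from HBB and, at a low level, from HBD. In both clusters the genes are driven by distant enhancers, the locus control region upstream of HBE1 and the regulatory elements upstream of HBZ. GATA1, TAL1, LMO2, LDB1 and KLF1 act there, together with acetyltransferases such as CREBBP and EP300. K562 cells are known for making embryonic and fetal globins and hardly any adult β-globin.

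Some members are so alike that reads of 50 bases cannot always be placed. On GRCh37 the α-like genes lie on the plus strand of chromosome 16 (HBZ at chr16:202643-204502, HBA2 at chr16:222875-223709, HBA1 at chr16:226679-227521). The β-like genes lie on the minus strand of chromosome 11 (HBB at chr11:5246694-5248301, HBD at chr11:5254068-5255713, HBG1 at chr11:5269499-5271087, HBG2 at chr11:5274418-5276011, HBE1 at chr11:5289575-5291175). The coding sequences of HBA1 and HBA2 were identical over 426 bases and those of HBG1 and HBG2 differed at 2 of 441 bases. HBE1 was 83.4% identical to HBG1, HBD 93.0% to HBB and HBZ 68.5% to HBA1. Of the 50-base windows of the canonical transcripts, 81.6% of those of HBA1 were also in HBA2 and 67.7% of those of HBG1 were also in HBG2. HBD shared 2.98% with HBB, HBE1 a single window with HBG1, and HBZ none with any member. The split between HBA1 and HBA2, and between HBG1 and HBG2, is therefore uncertain, and their sums are given as well. The stretch of 1 read length below, coding bases 385 to 434 in the last coding exon, holds 1 of the 2 differences between the γ-globin genes. It is shown because such a base is what a coding read must cover to be assigned to either gene. Letters in capitals differ from HBG1 (in HBG1 itself, from HBG2). The stretches lie at chr11:5269599-5269648, chr11:5274517-5274566, chr11:5289709-5289758 and chr11:5246838-5246887 of GRCh37, minus strand, in the order printed.
HBG1: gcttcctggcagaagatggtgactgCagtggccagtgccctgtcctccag
HBG2: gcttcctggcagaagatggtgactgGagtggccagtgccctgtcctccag
HBE1: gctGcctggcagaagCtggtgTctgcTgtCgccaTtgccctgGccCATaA
HBB: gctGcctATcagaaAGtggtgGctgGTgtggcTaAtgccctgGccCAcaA
HBE1 differed from HBG1 at 11 of these 50 bases and HBB at 14.

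The estimated depth of the libraries was 0.904 to 1.09 times their mean, from 218 genes at the level of a single read. Only genes whose values above 0 were close between libraries were used, so a large difference in depth could not show. Read counts were not part of the values, so the precision comes from the replicates only. Replicate 1 of 2 µM CBP30 stood apart. EEF1A1, a gene every cell uses, was listed at 0 there. Genes were also split by transcript length into 5 classes of equal size. In this sample the median difference from DMSO was 0.29 on the log2 scale for the shortest class (up to 1562 bases) and -0.30 for the longest. In replicate 2 of the same condition these values were 0.00 and -0.02. Globin transcripts have 576 to 798 bases and belong to the shortest class, so calls at 2 µM CBP30 are also given without this sample. In the 5 µM CBP30 samples the shortest class was at -0.12 and -0.11, and in the I-CBP112 samples the trend was weaker.

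In DMSO the α-like genes were led by HBZ and the β-like genes by HBG2. HBZ was at 630.3 and 589 FPKM in replicates 1 and 2 and ranked 123 and 136 among all genes of the library. HBG2 was at 442 and 435 FPKM, HBG1 at 255 in both, HBE1 at 162 and 155, and HBA1 at 85.1 and 78.3. HBA2 followed at 8.40 and 5.50 FPKM, HBD at 2.02 and 2.82, and HBB came last at 0.224 and 0.615. No neighbours in this order overlapped between their DMSO samples, although the place of HBA2 far below HBA1 depends on how shared reads were split. The cells thus held embryonic and fetal transcripts together, and the adult β-like genes were close to 0. The 8 genes made up 0.258% and 0.249% of the summed FPKM of the DMSO libraries.

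**Figure D1:**
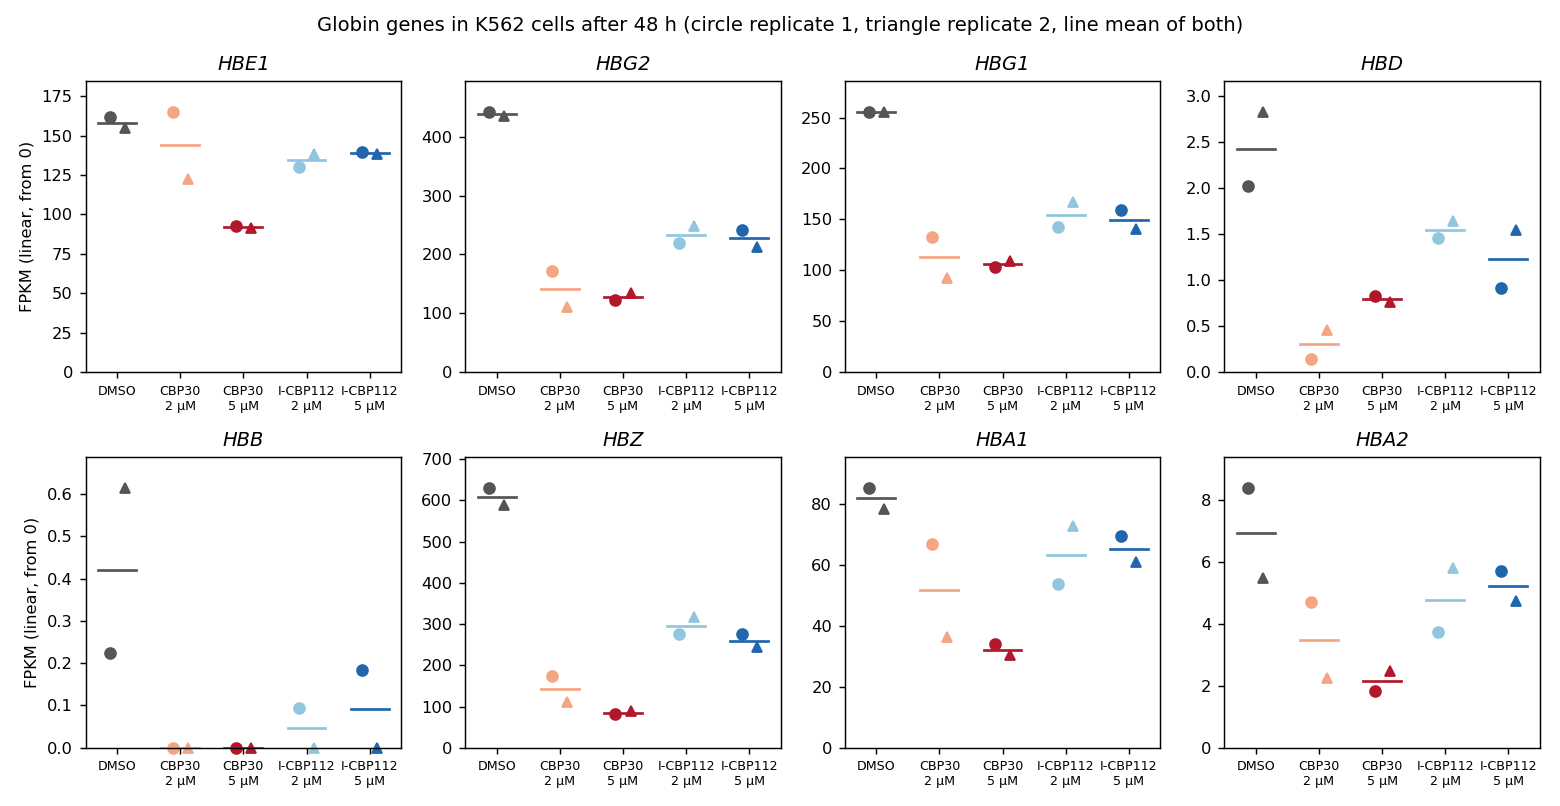
FPKM of the 8 globin genes (vertical axes, linear from 0, a scale of its own for each gene) in each of the 10 samples by condition, with replicate 1 as a circle, replicate 2 as a triangle and the mean as a line. HBZ fell from 630.3 and 589 FPKM in DMSO to 80.7 and 88.4 with 5 µM CBP30, HBE1 from 162 and 155 to 92.8 and 91.5, and HBB was listed at 0 in all 4 CBP30 samples.

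With 5 µM CBP30 all 7 testable globin genes fell and none rose (limma on log2(FPKM + 1), Benjamini-Hochberg adjusted p under 0.05 over 12788 genes). In this comparison 25.4% of all tested genes fell and 21.2% rose. The members' median difference of -1.31 stood beside a median of -0.01 over all tested genes. HBB had a mean under the 0.5 FPKM needed for the test and is described by its values alone. The lists, sums and comparisons below use the same log2(FPKM + 1) scale, on which the change of genes with low values is understated. In bulk RNA, fewer cells with a transcript and less transcript per cell cannot be told apart.

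HBZ, the embryonic α-like gene, had the largest difference of the 7 members on this scale in each of the 4 comparisons with DMSO. As a percentage of the DMSO mean, HBD was lower at 2 µM CBP30 (12.4% against 23.4% for HBZ), and with a pseudocount of 0.1 in place of 1 its difference there was -2.75, beyond that of HBZ. With 5 µM CBP30 HBZ was at 80.7 and 88.4 FPKM, 13.9% of the DMSO mean (84.6 ± 5.42 against 609.5 ± 29.5 FPKM, SD, n = 2 each). With 2 µM CBP30 it was at 174 and 111 FPKM, with 5 µM I-CBP112 at 276 and 244, and with 2 µM I-CBP112 at 275 and 318. All 8 treated samples lay below both DMSO samples, and the CBP30 samples lay below all I-CBP112 samples. The log2 difference from DMSO was -2.84 ± 0.20 with 5 µM CBP30 (SE, limma adjusted p = 5.4e-05) and -2.12 ± 0.20 with 2 µM (adjusted p = 0.00048). The latter was -2.45 without replicate 1 of 2 µM CBP30 (limma adjusted p = 9.0e-05). The difference was -1.23 ± 0.20 with 5 µM I-CBP112 (adjusted p = 0.0138). With 2 µM I-CBP112 it was -1.04 ± 0.20 and did not pass the threshold (adjusted p = 0.0578). Among all 12788 genes ordered from the largest fall, HBZ was at place 37 with 5 µM CBP30 and at place 65 with 2 µM.

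HBG2 and HBG1 encode the γ chains of fetal hemoglobin. HBG2 was at 122 and 135 FPKM with 5 µM CBP30 and at 172 and 110.0 with 2 µM. It was at 242 and 213 FPKM with 5 µM I-CBP112 and at 219 and 248 with 2 µM. HBG1 was at 103 and 109 FPKM after 5 µM CBP30, at 133 and 92.6 with 2 µM, at 159 and 141 with 5 µM I-CBP112 and at 142 and 167 with 2 µM I-CBP112. Every treated sample was below both DMSO samples for both genes, and for both the 2 concentrations of CBP30 overlapped. HBG2 fell by 1.77 ± 0.19 on the log2 scale (SE, limma adjusted p = 0.00038) and HBG1 by 1.26 ± 0.16 (adjusted p = 0.00079) with 5 µM CBP30. With 2 µM CBP30 their differences were -1.66 ± 0.19 (adjusted p = 0.0012) and -1.20 ± 0.16 (adjusted p = 0.0022), or -1.99 and -1.45 without replicate 1 (adjusted p = 0.00014 and 0.00041). With 5 µM I-CBP112 they were -0.95 ± 0.19 (adjusted p = 0.0316) and -0.77 ± 0.16 (adjusted p = 0.036). With 2 µM I-CBP112 the differences of -0.91 and -0.73 did not pass the threshold (limma adjusted p = 0.0812 and 0.0949).

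Added up, the γ-globin genes were at 694 ± 4.53 FPKM in DMSO, 234 ± 12.8 with 5 µM CBP30 and 254 ± 72.6 with 2 µM CBP30 (SD, n = 2 each). The sum passed the test with 5 µM CBP30 (log2 difference -1.56, limma adjusted p = 0.00048), 2 µM CBP30 (-1.48, adjusted p = 0.0015, or -1.77 without its replicate 1) and 5 µM I-CBP112 (-0.88, adjusted p = 0.0324), as each gene did alone. The ratio of HBG2 to HBG1 was 1.73 and 1.71 in DMSO, between 1.49 and 1.54 in the 4 I-CBP112 samples and between 1.18 and 1.30 in the 4 CBP30 samples. The 3 ranges do not overlap. The part of the split of shared reads in this ratio was not tested.

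HBE1, the embryonic β-like gene at the head of its cluster, kept the highest percentage of its DMSO mean among the 7 tested members with each treatment, between 58.2% and 90.9%. It was at 92.8 and 91.5 FPKM with 5 µM CBP30, both below DMSO and below every other sample. With 2 µM CBP30 it was at 165 and 123 FPKM, 1 sample above and 1 below both DMSO samples. With I-CBP112 it was at 130.2 and 139 FPKM (2 µM) and 139.6 and 138 (5 µM), all below DMSO. HBE1 fell with 5 µM CBP30 by 0.77 ± 0.12 on the log2 scale (SE, limma adjusted p = 0.0020), to 58.2% of the DMSO mean. The difference was -0.15 with 2 µM CBP30 (95% interval -0.44 to 0.14, limma adjusted p = 0.368). It was -0.19 with 5 µM I-CBP112 (-0.47 to 0.10, adjusted p = 0.441) and -0.23 with 2 µM I-CBP112 (-0.52 to 0.05, adjusted p = 0.475). Without replicate 1 of 2 µM CBP30 the difference at 2 µM CBP30 became -0.36 (limma adjusted p = 0.0026), and without replicate 2 it was 0.06 (adjusted p = 0.3295), so the call for HBE1 at this concentration rested on which sample was used.

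HBD and HBB, the adult β-like genes, were near the limit of what the values show. HBD, the gene of the δ chain of the minor adult hemoglobin, was at 0.831 and 0.763 FPKM with 5 µM CBP30 and at 0.147 and 0.456 with 2 µM. It was at 0.914 and 1.55 with 5 µM I-CBP112 and at 1.45 and 1.64 with 2 µM I-CBP112. All treated samples were below both DMSO samples, and the 2 µM CBP30 samples were lower than those at 5 µM. HBD fell with both concentrations of CBP30 (log2 differences -1.40 ± 0.18 at 2 µM and -0.92 ± 0.18 at 5 µM, SE, limma adjusted p = 0.0019 and 0.0054), to 12.4% and 32.9% of the DMSO mean. The difference at 2 µM was -1.22 without its replicate 1 (limma adjusted p = 0.0061). The size of these differences depends on the pseudocount, with -2.75 and -1.47 at a pseudocount of 0.1 and -0.48 and -0.35 at one of 5, and each of them passed. With I-CBP112 it differed by -0.62 and -0.42 with 5 and 2 µM without passing the threshold (limma adjusted p = 0.0939 and 0.373). HBB, the gene of the adult β chain, was listed at 0 in all 4 CBP30 samples. It was at 0.095 and 0 FPKM with 2 µM I-CBP112 and at 0.184 and 0 with 5 µM, all below the DMSO samples. An exact 0 in these values can be a failed estimate, as EEF1A1 shows, so no fold is given for HBB.

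The promoter table from RefSeq (GRCh38.p14) held 1 of the 8 members, HBD, whose 250 bases before the transcription start (chr11:5234484-5234733, minus strand) are shown as the one member promoter to hand and as that of a weakly read copy of β-globin. Capitals mark the letters CCAAT and TTATCT.
HBD: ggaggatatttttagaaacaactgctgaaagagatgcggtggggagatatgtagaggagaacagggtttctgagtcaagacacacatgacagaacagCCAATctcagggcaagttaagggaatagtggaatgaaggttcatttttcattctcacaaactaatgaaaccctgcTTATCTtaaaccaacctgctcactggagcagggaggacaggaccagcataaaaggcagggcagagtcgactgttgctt
CCAAT, the letters bound by NF-Y, occurred once at -153 to -149 and in 33% of the 27305 promoters searched on both strands. TTATCT at -78 to -73 is AGATAA on the opposite strand, a spelling of the GATA motif. That motif, searched as AGATAA or TGATAA and with AGATAG or also TGATAG counted, occurred in 22.9% of promoters. CCAAC, a spelling that differs from CCAAT in its last letter, occurred once at -68 to -64 and in 32.9% of promoters. CCACACCC, a spelling of the KLF1 motif, did not occur in these bases and occurred in 2.9% of promoters. These are matches of letters only, and no binding was measured.

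HBA1 and HBA2 encode the same α chain, used in fetal and adult hemoglobin. HBA1 was at 34.0 and 30.4 FPKM with 5 µM CBP30 and at 66.7 and 36.4 with 2 µM. It was at 69.3 and 60.8 with 5 µM I-CBP112 and at 53.6 and 72.5 with 2 µM I-CBP112. HBA2 was at 1.85 and 2.49 FPKM with 5 µM CBP30, against 4.72 and 2.27 with 2 µM CBP30, at 5.70 and 4.76 with 5 µM I-CBP112 and at 3.73 and 5.80 with 2 µM I-CBP112. For HBA1 all treated samples lay below DMSO, whereas for HBA2 both I-CBP112 groups overlapped with DMSO. With 5 µM CBP30 HBA1 had a log2 difference of -1.32 ± 0.27 and HBA2 of -1.31 ± 0.31 (SE, limma adjusted p = 0.0059 and 0.0117), and both fell. Their sum differed by -1.34 ± 0.27 (adjusted p = 0.0059). HBA2 no longer passed without replicate 1 of DMSO or without replicate 1 of 5 µM CBP30 (limma adjusted p = 0.0798 and 0.0727). No other comparison with DMSO passed for either gene, with limma adjusted p = 0.0793 (HBA1) and 0.0745 (HBA2) for 2 µM CBP30 and from 0.546 to 0.619 for I-CBP112. Without replicate 1 of 2 µM CBP30, HBA1 differed by -1.14 (limma adjusted p = 0.0052) and HBA2 by -1.26 (adjusted p = 0.0205) at that concentration. Without replicate 2 the differences were -0.29 and -0.45 (limma adjusted p = 0.215 and 0.235).

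**Figure D2:**
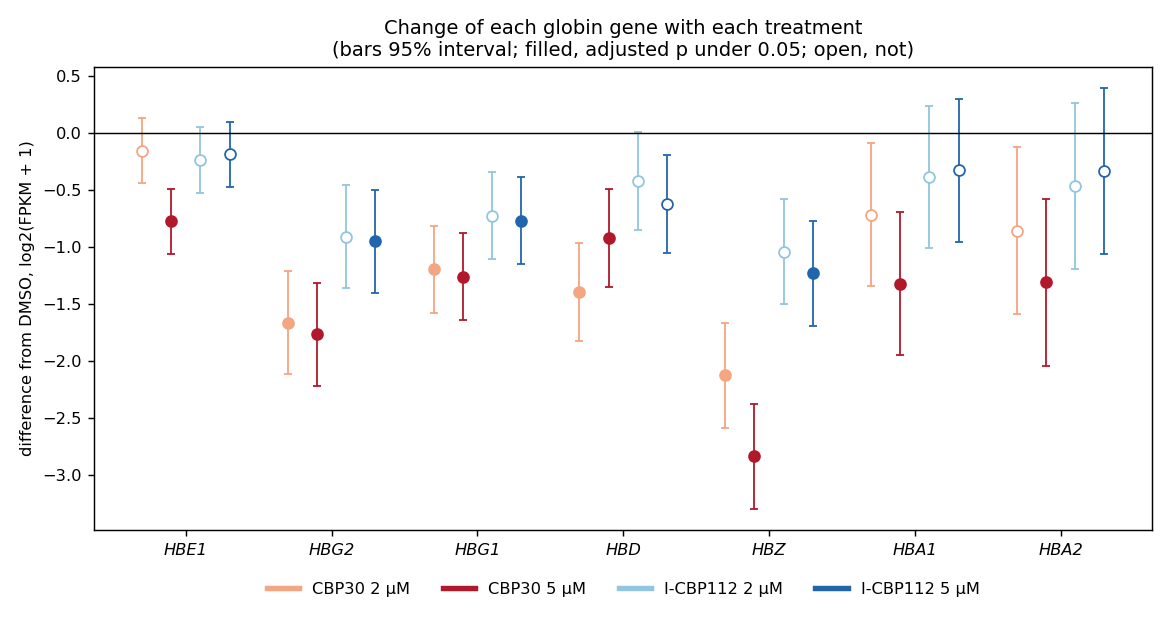
Difference from DMSO in log2(FPKM + 1) (vertical axis) for the 7 tested globin genes (horizontal axis) with each of the 4 treatments, with 95% intervals from limma, where filled points have an adjusted p under 0.05. All 7 points for 5 µM CBP30 are filled, from -2.84 for HBZ to -0.77 for HBE1, and no point for 2 µM I-CBP112 is.

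By number of members, 7 of 7 fell with 5 µM CBP30, 4 of 7 with 2 µM CBP30 (HBZ, HBG2, HBG1 and HBD), 3 of 7 with 5 µM I-CBP112 (HBZ, HBG2 and HBG1) and 0 of 7 with 2 µM I-CBP112. None rose with any treatment. Of all tested genes, 16.3% fell and 15.9% rose with 2 µM CBP30. With 5 µM I-CBP112 3.28% fell and 3.84% rose, and with 2 µM 0.735% fell and 0.868% rose. The median difference of the 7 genes was -1.20, -0.62 and -0.46 in these 3 comparisons, while the median over all tested genes was 0.01, 0.00 and 0.00. At an unadjusted limma p under 0.05 the members lower were 7, 6, 4 and 3 in the order given, the 3 with 2 µM I-CBP112 being HBZ, HBG2 and HBG1. The share of all tested genes at this looser threshold was not taken. The shares above belong to the adjusted one and cannot be set beside these counts. The 4 comparisons share the DMSO samples and are not independent of each other.

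Counts depended on single samples. Where leaving out a sample changed a count, the number of all tested genes called lower changed in the same direction. Such a change is therefore not particular to the globin genes. At 5 µM CBP30 6 rather than 7 members fell without replicate 1 of DMSO or replicate 1 of 5 µM CBP30. Without replicate 1 of 2 µM CBP30, the differences of the 7 tested members at 2 µM CBP30 ran from -2.45 (HBZ) to -0.36 (HBE1). Leaving out either 2 µM CBP30 sample kept the I-CBP112 differences as they were and changed only the spread, which is estimated over all groups. More members were then called lower with I-CBP112, as were more of all tested genes. Without either DMSO sample or either 5 µM I-CBP112 sample, 0 members passed with 5 µM I-CBP112. Without either 5 µM CBP30 or either 2 µM I-CBP112 sample, 1 did. The calls at 2 µM CBP30 also depended on the fit. None of the 4 passed when only the 2 µM CBP30 and DMSO samples were fitted (limma adjusted p = 0.0543 for HBZ to 0.0786 for HBG1), whereas 6 members fell after quantile normalization or after scaling to the summed FPKM without the globin genes.

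The make-up of the globin transcripts shifted along with their sum. All members together were at 1585 and 1521 FPKM in DMSO, 435.5 and 457 with 5 µM CBP30 and 716 and 475 with 2 µM. They were at 892 and 803 with 5 µM I-CBP112 and 825 and 951 with 2 µM I-CBP112. All treated samples were lower than DMSO, and the 5 µM CBP30 samples were the lowest. Within the β-like genes the share of HBE1 was 18.8% and 18.3% in DMSO, 29.1% and 27.3% with 5 µM CBP30 and 35.1% and 37.7% with 2 µM. It was 25.8% and 28.1% with 5 µM I-CBP112 and 26.4% and 25.0% with 2 µM I-CBP112. The ε share was thus higher in all 8 treated samples, with the γ genes taking nearly all of the remainder.

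Within the α-like genes the share of HBZ was 87.1% and 87.5% in DMSO, 69.3% and 72.9% with 5 µM CBP30 and 71.0% and 74.2% with 2 µM. It was 78.6% and 78.8% with 5 µM I-CBP112 and 82.8% and 80.2% with 2 µM I-CBP112. It was lower in all 8 treated samples, so the embryonic gene lost share in the α cluster and gained share in the β cluster. The ratio of summed β-like to α-like FPKM was 1.19 and 1.26 in DMSO, 2.74 and 2.77 with 5 µM CBP30 and 1.91 and 2.18 with 2 µM. It was 1.54 and 1.60 with 5 µM I-CBP112 and 1.48 and 1.40 with 2 µM I-CBP112. The ratio was higher in all treated samples than in DMSO, with the 4 CBP30 samples above the 4 of I-CBP112. Shares and ratios within a sample do not depend on the scaling of its library. As 2 samples against 2 cannot give an exact permutation p under 0.333, they are given as a description.

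**Figure D3:**
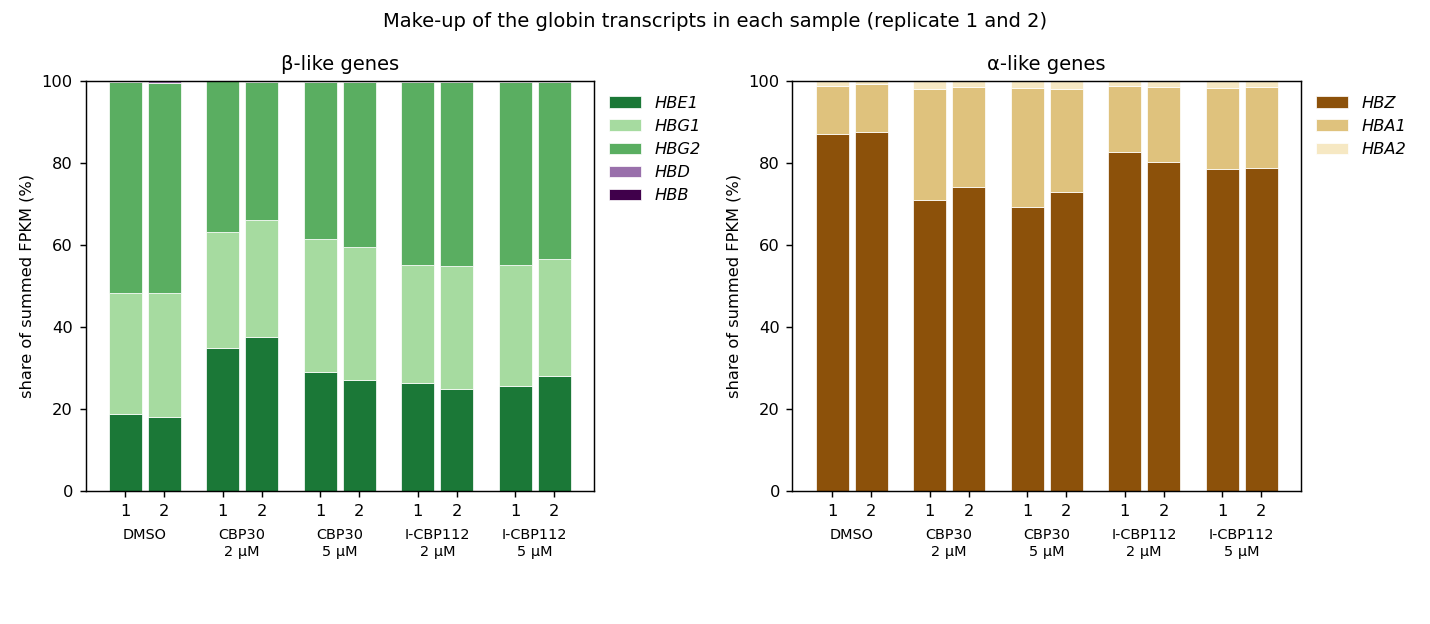
Share of each gene in the summed FPKM (vertical axes, percent) of the 5 β-like genes (left) and the 3 α-like genes (right) in each of the 10 samples, replicates 1 and 2 of each condition side by side. The share of HBE1 went from 18.8% and 18.3% in DMSO to between 25.0% and 37.7% in the treated samples, and that of HBZ from 87.1% and 87.5% to between 69.3% and 82.8%.

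Between 2 and 5 µM CBP30, HBZ was 0.71 ± 0.20 lower at 5 µM on the log2 scale (SE, limma adjusted p = 0.0284) and HBE1 0.62 ± 0.12 lower (adjusted p = 0.0109). These were 2 of 7 members, in a comparison where 21.3% of all tested genes were lower and 17.6% higher at 5 µM. The γ-globin genes did not pass, with differences of -0.10 for HBG2 (95% interval -0.56 to 0.35) and -0.06 for HBG1 (-0.45 to 0.32). HBA1 differed by -0.60 (-1.23 to 0.02), HBA2 by -0.46 (-1.19 to 0.28) and HBD by 0.48 (0.05 to 0.90), with limma adjusted p = 0.108, 0.268 and 0.0743. For HBD the difference was 1.28 with a pseudocount of 0.1 (limma adjusted p = 0.0413) and 0.13 with one of 5 (adjusted p = 0.150). Against replicate 2 of 2 µM CBP30 alone, HBZ was 0.39 lower at 5 µM (limma adjusted p = 0.0456) and HBE1 0.41 lower (adjusted p = 0.0028). HBG2 was then 0.22 higher (adjusted p = 0.163) and HBG1 0.19 higher (adjusted p = 0.208). With all samples kept and the length trend removed, HBG1 was 0.28 higher (adjusted p = 0.0294). Against replicate 1 alone, 6 members were lower and 1 higher at 5 µM. Without either 5 µM CBP30 sample 0 members passed, and without replicate 1 of DMSO 1 did.

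**Figure D4:**
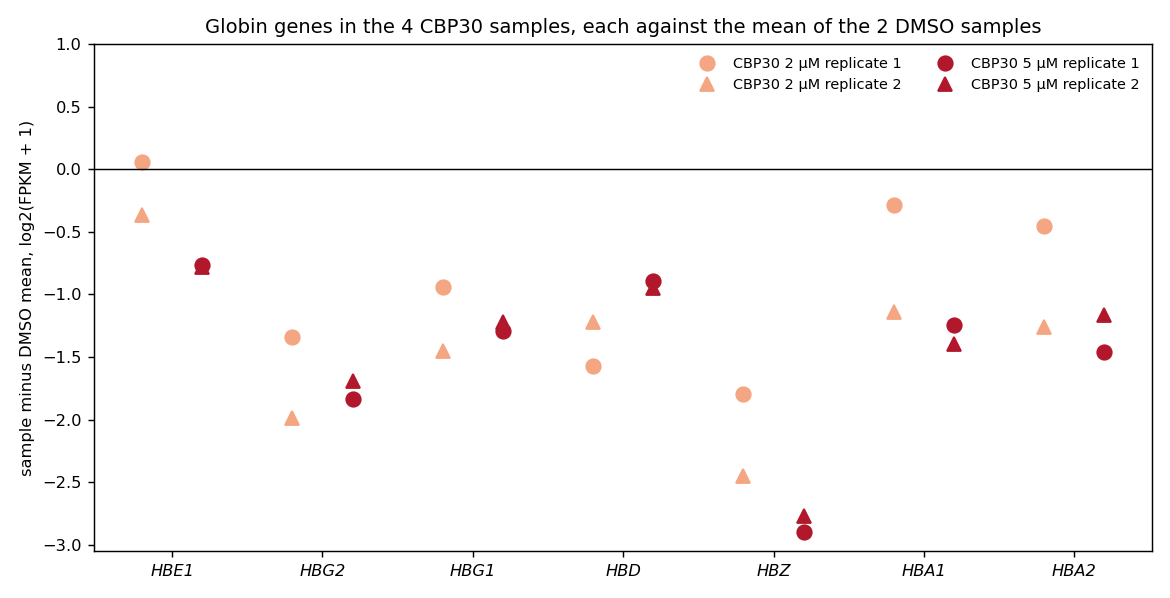
Difference of each CBP30 sample from the mean of the 2 DMSO samples in log2(FPKM + 1) (vertical axis) for the 7 tested globin genes (horizontal axis), at 2 µM (light) and 5 µM (dark), with replicate 1 as a circle and replicate 2 as a triangle. At 2 µM replicate 1 lies above replicate 2 for every gene but HBD, with HBE1 0.06 above and 0.36 below the DMSO mean, while the 5 µM replicates lie close together.

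Between 2 and 5 µM I-CBP112 no member passed. Their differences ran from -0.20 (HBD, 95% interval -0.63 to 0.22) to 0.13 (HBA2, -0.60 to 0.86), and 0.00782% of all tested genes were lower and 0.0547% higher at 5 µM. The interval for HBZ was -0.65 to 0.27.

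The 2 compounds were compared at both matched concentrations. At 5 µM, HBZ was 1.61 ± 0.20 lower with CBP30 than with I-CBP112 on the log2 scale (SE, limma adjusted p = 0.0014), HBA1 0.99 ± 0.27 lower (adjusted p = 0.0288), HBG2 0.82 ± 0.19 lower (adjusted p = 0.0181) and HBE1 0.59 ± 0.12 lower (adjusted p = 0.0114). These 4 of 7 stood beside 17.9% of all tested genes lower and 13.6% higher with CBP30. The summed γ-globin genes also passed (-0.68, adjusted p = 0.0274), as did the summed α-globin genes (-1.01, adjusted p = 0.0288). HBA2 (-0.98, 95% interval -1.71 to -0.25, limma adjusted p = 0.0502) and HBG1 (-0.49, -0.87 to -0.11, adjusted p = 0.0565) were just outside the threshold, and HBD differed by -0.30 (-0.73 to 0.13). When any 1 of the 4 samples compared was left out, 1 member passed, and without either 2 µM CBP30 sample 6 did.

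At 2 µM, HBZ was 1.08 ± 0.20 lower with CBP30 (SE, limma adjusted p = 0.0156), HBD 0.98 ± 0.18 lower (adjusted p = 0.0169) and HBG2 0.75 ± 0.19 lower (adjusted p = 0.0418), 3 of 7 members where 8.45% of all tested genes were lower and 7.13% higher. HBG1 (-0.47, 95% interval -0.85 to -0.09), HBA2 (-0.39, -1.12 to 0.34), HBA1 (-0.33, -0.96 to 0.29) and HBE1 (0.08, -0.21 to 0.37) did not pass. Without replicate 1 of 2 µM CBP30, 5 members were lower, and without either 2 µM I-CBP112 sample 0 were. Without either sample of any other group but 2 µM CBP30, 2 were. HBE1 changed side here, at -0.13 without replicate 1 of 2 µM CBP30 (limma adjusted p = 0.112) and 0.29 without replicate 2 (adjusted p = 0.0031).

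Of the other globin genes 2 of 6 could be tested. HBQ1, the θ gene of the α cluster, was at 30.5 and 30.3 FPKM in DMSO, 12.6 and 11.4 with 5 µM CBP30 and 34.6 and 18.0 with 2 µM. It was at 26.0 and 19.3 with 5 µM I-CBP112 and 24.6 and 24.7 with 2 µM I-CBP112. It fell with 5 µM CBP30 (log2 difference -1.27 ± 0.27, SE, limma adjusted p = 0.0071) and with no other treatment. In its 2 µM CBP30 samples it lay on either side of DMSO, as HBE1 did, and without replicate 1 it was lower at 2 µM as well (-0.73, adjusted p = 0.0148). HBBP1, the β-cluster pseudogene, did not pass with any treatment.

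Among 10 activators of globin transcription, all tested, 9 fell and 1 rose with 5 µM CBP30 (median difference -1.41) and 8 fell with 2 µM (-0.88). The median at 2 µM was -0.92 without replicate 1 of 2 µM CBP30. With 5 µM I-CBP112 5 fell (-0.38) and with 2 µM 2 fell (-0.24). Of all tested genes 25.4% fell and 21.2% rose with 5 µM CBP30, and 16.3% fell with 2 µM CBP30. With 5 and 2 µM I-CBP112 3.28% and 0.735% fell. KLF1, an activator of the adult β-globin promoter, was at 68.8 and 61.9 FPKM in DMSO, 25.8 and 18.5 with 2 µM CBP30 and 8.40 and 8.49 with 5 µM. It was at 35.7 and 37.9 with 2 µM I-CBP112 and 29.8 and 29.0 with 5 µM I-CBP112. It fell with each treatment, with log2 differences of -2.81, -1.54, -1.13 and -0.81 for 5 and 2 µM CBP30, then 5 and 2 µM I-CBP112 (limma adjusted p = 1.4e-05, 0.00042, 0.0050 and 0.0405). LMO2, the bridging protein of the GATA1 and TAL1 complex, had the largest fall of the list (90.4 and 86.7 FPKM in DMSO, 8.23 and 7.69 with 5 µM CBP30, limma adjusted p = 4.1e-07). TAL1, the helix-loop-helix factor of the same complex, was the one that rose, from 17.4 FPKM in both DMSO samples to 23.4 and 24.2 (adjusted p = 0.0013).

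Of the repressors of the fetal genes and factors of the fetal programme, 15 of 16 were tested. The list holds both kinds of gene, so its counts and medians do not describe the repressors alone. With 5 µM CBP30 5 fell and 2 rose (median difference -0.22), where 25.4% of all tested genes fell and 21.2% rose. With 2 µM CBP30 6 fell (-0.27), against 16.3% of all tested genes. The median at 2 µM was -0.10 without replicate 1 of 2 µM CBP30. None passed with I-CBP112. BCL11A, the main repressor of γ-globin in adult cells, stayed under 0.1 FPKM in all 10 samples and was not tested. MYB, which holds γ-globin down in part through other factors, was at 124 FPKM in both DMSO samples and 87.3 and 88.3 with 5 µM CBP30 (log2 difference -0.49, limma adjusted p = 0.00033), and passed with no other treatment. NFIX had the largest fall (4.08 and 3.94 FPKM in DMSO, 2.37 and 2.38 with 5 µM CBP30, adjusted p = 0.00053), and CHD4, the remodeler of the NuRD complex, the largest rise on the log2(FPKM + 1) scale (90.3 and 95.3 to 122 and 121, adjusted p = 0.0040). As a percentage of the DMSO mean SOX6, a partner of BCL11A, rose further (140.5% against 131% for CHD4, adjusted p = 0.0347).

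The partners of globin were tested as 14 of 16 genes of heme synthesis, iron supply and the α-chain chaperone. With 5 µM CBP30 8 fell and 1 rose (median difference -0.31), and with 2 µM also 8 fell and 1 rose (-0.22). The median at 2 µM was -0.29 without replicate 1 of 2 µM CBP30. With 5 µM I-CBP112 3 fell and 1 rose (-0.16), and with 2 µM none passed. Of all tested genes 25.4% fell and 21.2% rose with 5 µM CBP30, and 16.3% and 15.9% with 2 µM CBP30. With 5 µM I-CBP112 3.28% fell and 3.84% rose. UROD, the decarboxylase of heme synthesis, fell from 359.7 and 360.3 FPKM in DMSO to 142 and 139.9 with 5 µM CBP30 (limma adjusted p = 0.00011), while ALAD, an early enzyme of the same pathway, rose from 8.35 in both to 17.4 and 16.7 (adjusted p = 2.8e-05). AHSP, which keeps free α chains soluble, was at 0.971 and 1.04 FPKM in DMSO, and listed at 0 in all 4 CBP30 samples. It was at 0 and 0.50 with 2 µM I-CBP112 and at 0.121 and 0.347 with 5 µM, and was under the level needed for the test.

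Markers of the lineages K562 cells can take moved with the globin genes in part. Beside the counts that follow, 25.4% of all tested genes fell with 5 µM CBP30 and 16.3% with 2 µM CBP30. The 12 erythroid markers summed to between 679 and 684 FPKM in DMSO, 355.7 and 364 with 5 µM CBP30 and 491 and 579.6 with 2 µM. With I-CBP112 they summed to between 552 and 578. All 9 tested fell with 5 µM CBP30, led on the log2(FPKM + 1) scale by GYPC (glycophorin C, to 37.3% of its DMSO mean) and as a percentage by EPOR (the erythropoietin receptor, to 34.7%). With 2 µM CBP30 7 fell (median difference -0.67, or -0.64 without replicate 1). With 5 and 2 µM I-CBP112 4 and 2 of the 9 fell, against 3.28% and 0.735% of all tested genes. GYPB went the other way in part, without being called higher. It was at 129% of its DMSO mean with 2 µM CBP30 and at 117% with 5 µM I-CBP112, with all of these samples above DMSO. EPB42, a protein of the mature red cell membrane, was near 0 throughout. The 9 megakaryocytic markers summed to between 4.91 and 5.37 FPKM in DMSO and 2.67 and 2.69 with 5 µM CBP30. GP9 and PF4 were at 0 in every sample, and 2 of 3 tested were lower with 5 µM CBP30, led by ITGA2B. With I-CBP112 the megakaryocytic sums were higher than in DMSO (5.49 to 6.23 FPKM). GP6, the collagen receptor of platelets, rose with 5 µM to 162% of its DMSO mean (limma adjusted p = 0.0267). It was 1 of 3 tested, where 3.84% of all tested genes rose. Other markers went the other way. ITGA2B was at 90.5% and 76.6% of its DMSO mean with 2 and 5 µM I-CBP112. ITGB3, too low to be tested, was at 60.3% and 58.8%, and for both genes all I-CBP112 samples were below DMSO. The 10 myeloid markers summed to between 115 and 117 FPKM in DMSO, 106 and 108 with 5 µM CBP30 and 132 and 152 with 2 µM, and to between 122 and 126.5 with I-CBP112. ELANE was at 0 in every sample, and 2 of 6 tested were lower with 5 µM CBP30, led by CSF3R. This count is close to the 25.4% over all tested genes. With 2 µM CBP30 1 of the 6 was higher, CD33 (to 122% of its DMSO mean, limma adjusted p = 0.0106). Another 1 was lower, CSF3R (to 63.4%), so the higher sum was not shared by all myeloid markers. Of all tested genes 15.9% rose and 16.3% fell there. The part of these markers in the globin results was not tested.

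Over the 10 samples, the genes most like each member were sought by Pearson's r of log2(FPKM + 1) among the 8992 genes whose mean was 5 FPKM or more. The r is a description over points that share 5 conditions and their library scaling. HBZ was followed by CNN1, TMBIM1 and VDAC1 (r of 0.996 to 0.995), HBG2 by UCP2, RHAG and ANXA1 (0.984 to 0.979), and HBG1 by GATA2, UCP2 and TRPV2 (0.976 to 0.973). HBE1 was followed by PSMG1, MRPS15 and SSBP1 (0.995 to 0.991). HBA1 was followed by PDIA5, NAIF1 and CFD (0.984 to 0.978), HBA2 by CYBASC3, ALDH4A1 and CFD (0.956 to 0.954), and HBD by TSTD2, PSME3 and FLJ43681 (0.982 to 0.970).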

How the data were processed

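Stranded libraries of polyadenylated RNA from K562 cells (2 biological replicates in each of 5 conditions) were sequenced as single reads of 50 bases. The authors processed the reads with Nextpresso on hg19 and deposited a table of FPKM values for 23284 genes, 1 column per sample, without pooling. The submitters' processing notes name FastQC, TopHat2 2.0.10, Bowtie 1.0.0, SAMtools 0.1.19, Cufflinks 2.2.1 and Cuffnorm. FPKM values hold no read counts, and a change in abundant genes shifts all others.

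The test was limma's (version 3.58.1, R 4.3.3, eBayes with a trend) on log2(FPKM + 1), in 1 fit of all 10 samples. It took the 12788 genes whose mean reached 0.5 FPKM and had 5 residual and 2.15 prior degrees of freedom. Calls were made at 0.05 after Benjamini-Hochberg adjustment over all tested genes. The fit was tested on simulated data. The named genes were the 8 members, the companion gene with the largest fall and rise with 5 µM CBP30 in each list, KLF1, BCL11A, MYB and AHSP, and the 3 most similar genes of each member. Further genes of the lists, among them SOX6, EPOR, GYPB, GP6, ITGB3 and CD33, were named outside this rule. The members and lists were chosen with earlier results of these data known. Transcript lengths came from GENCODE for GRCh37 (94.9% of tested genes). Alternatives were other pseudocounts, filters, scalings and fits, paralogs added up, removal of the length trend, a replicate block and leaving out each sample. Replicate numbers come from the sample titles, and nothing says that same-numbered cultures were handled together. Python 3.11.15, pandas 2.3.3 and matplotlib 3.10.9 served for tables and plots.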

Additional observations from a re-analysis of the deposited data

How the results depend on the processing

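The fall of the globin genes with 5 µM CBP30 kept its direction under every alternative run, with 5 to 8 members passing (8 where HBB entered without a filter, 5 where a filter at a mean of 5 FPKM left fewer to test) and 6 to 7 when 1 sample was left out. The other counts depended more on the processing. With the length trend removed, alone or together with the replicate block, 7 members were lower at 2 µM CBP30, 4 at 2 µM I-CBP112 and 5 between the compounds at 2 µM, and 2 were higher at 5 than at 2 µM CBP30. Without the block, 2505, 266 and 1580 of all 12130 genes tested there were lower and 2209 higher, in the same order. In the main fit these were 2079, 94, 1081 and 2255 of 12788. With the trend removed HBG1 became higher at 5 than at 2 µM CBP30 (0.28) and HBE1 lower with CBP30 than with I-CBP112 at 2 µM (-0.14). A fit of only the groups compared called 0 members at 2 µM CBP30, 0 between the CBP30 concentrations and 0 between the compounds at 2 µM. Calls were rare there over all 12788 tested genes too. In the same order 164, 4 and 9 genes were called lower, against 2079, 2724 and 1081 in the fit of all 10 samples. Quantile normalization and scaling to the summed FPKM without the globin genes called 6 at 2 µM CBP30 and 3 at 2 µM I-CBP112, and scaling, a pseudocount of 0.1 and the replicate block called 1 higher at 5 than at 2 µM CBP30. With the replicate number as a block, 1 member was lower with 5 µM I-CBP112. The correlations of same-numbered samples' deviations were from -0.07 to 0.09 over 10 pairs of groups, so the numbers were not taken to pair the samples. Leaving out 1 sample gave counts from 4 to 7 at 2 µM CBP30, from 0 to 5 at 5 µM and from 0 to 4 at 2 µM I-CBP112, from 0 to 6 lower and 0 to 1 higher between the CBP30 concentrations, from 1 to 6 between the compounds at 5 µM and from 0 to 5 lower and 0 to 1 higher at 2 µM, with the remaining sample of a group assumed to vary like the other groups. Where leaving out a sample changed a count, the number of all tested genes called in that direction changed the same way. For changes other than those set by fewer genes or samples the cause was not tested. The values of the other gene lists without replicate 1 of 2 µM CBP30 were added after the data had been seen.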
